A study of Mus musculus with 10 samples.

Results

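The genes described are 10 immediate early genes of the mouse, taken by name from a list: Egr1, Egr2, Egr3, Nr4a1, Nr4a2, Nr4a3, Ier2, Dusp1, Zfp36 and Plk2. All 10 were found among the 30205 genes to which the deposited transcripts were summed, and all 10 were among the 15583 genes tested. They were measured by RNA sequencing of cells sorted by flow cytometry from C57BL/6 mice, in 10 libraries forming 5 groups of 2. The study asks what joint NF-kB and Notch activity does to the development, transformation and plasticity of B cells. Lymphoma cells came from lymphoma tissue of Rosa-NIKdeltaT3flSTOP x Rosa-Notch2ICN x CD19Cre mice. Doubly-activated cells carried the same alleles and were labelled marginal zone precursor B cells. NF-kB-activated cells, also labelled marginal zone precursors, carried Rosa-NIKdeltaT3flSTOP x CD19Cre, a conditional allele of NIK, the kinase that starts the alternative NF-kB pathway. Notch-activated cells carried Rosa-Notch2ICN x CD19Cre, an allele of the intracellular part of Notch2, and were labelled marginal zone B cells. Control cells were labelled wild type marginal zone precursors, so that their genotype lists no CD19Cre, the recombinase expressed in B cells that switches on the alleles of the other groups. The 4 groups without lymphoma came from lymph node and are all labelled pre-malignant; no age or time is given.

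Immediate early genes are transcribed within minutes of a stimulus, from factors that are already present in the cell, and need no new protein. In B cells the antigen receptor, Toll-like receptors and cytokines start them, through MAP kinases and calcium that act on SRF with its ELK partners, on CREB and on NFAT, but handling, cell dissociation and warming can start them too. The products include transcription factors, such as the EGR zinc finger proteins and the NR4A orphan nuclear receptors, and inhibitors that end the response, such as the MAP kinase phosphatase DUSP1 and the mRNA-destabilizing protein ZFP36.

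Sites of these factors were looked for in the promoters. RefSeq promoter sequences (GRCm38.p6) were read for 7 of the 10 genes, all but Egr1, Egr3 and Ier2. In the 250 bases before the RefSeq start, the CREB site (CRE, TGACGTCA) was found in 2 of the 7, Dusp1 and Plk2, and in 1.55% of the 32851 promoter windows of all genes. Its core TGACG, which occurs in both strands of each CRE and so overlaps it, was found in 6 of the 7 and in 17.8% of all windows. The SRF site, the CArG box, was found in Egr2 and Zfp36 and in 1.47% of all windows. The EGR site GCGNGGGCG was found in Nr4a1, Nr4a2 and Zfp36 and in 4.70% of all windows, and TATAAA in Nr4a2 and in 12.4%. The AP-1 site TGANTCA (6.75% of all windows) and the NR4A site AAAGGTCA (1.34%) were found in none of the 7, which says only that these letters are not in these windows. Both strands were searched for every motif, and a match is a description of the letters. By scaled counts all 7 genes, and also Egr1, Egr3 and Ier2, were higher without overlap in doubly-activated than in NF-kB-activated cells (29.5% of all genes tested). Of these, Egr1, Nr4a3 and Ier2 did not pass the test given below. The higher level thus does not set the genes with a motif apart. Of the 7, Zfp36, the 1 without a TGACG core, and Nr4a3 are not printed. The 5 sequences below, of the other genes, are shown so that the motifs can be compared. They run 5' to 3' on the strand of the gene and end at its start; capitals mark CRE cores, whole CREs and the CArG box.
Egr2: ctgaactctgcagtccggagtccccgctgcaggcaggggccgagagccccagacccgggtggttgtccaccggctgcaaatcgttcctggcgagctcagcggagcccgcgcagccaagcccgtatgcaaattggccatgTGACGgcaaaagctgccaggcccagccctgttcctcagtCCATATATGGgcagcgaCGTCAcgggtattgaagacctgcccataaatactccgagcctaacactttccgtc
Nr4a1: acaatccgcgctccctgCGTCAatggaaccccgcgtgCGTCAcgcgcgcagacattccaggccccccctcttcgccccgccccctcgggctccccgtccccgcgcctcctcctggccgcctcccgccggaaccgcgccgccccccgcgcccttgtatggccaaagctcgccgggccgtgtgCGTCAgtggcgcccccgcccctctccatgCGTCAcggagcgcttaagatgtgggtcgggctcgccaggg
Nr4a2: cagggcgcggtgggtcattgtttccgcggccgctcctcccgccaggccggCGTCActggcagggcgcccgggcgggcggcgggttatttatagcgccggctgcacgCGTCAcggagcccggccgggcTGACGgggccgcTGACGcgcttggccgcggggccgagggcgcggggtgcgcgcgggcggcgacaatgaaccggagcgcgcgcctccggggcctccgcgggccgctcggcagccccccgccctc
Dusp1: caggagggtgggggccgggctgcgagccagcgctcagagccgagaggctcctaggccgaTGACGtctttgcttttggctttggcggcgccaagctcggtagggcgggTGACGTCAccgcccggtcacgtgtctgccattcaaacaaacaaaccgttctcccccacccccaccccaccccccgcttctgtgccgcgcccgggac
Plk2: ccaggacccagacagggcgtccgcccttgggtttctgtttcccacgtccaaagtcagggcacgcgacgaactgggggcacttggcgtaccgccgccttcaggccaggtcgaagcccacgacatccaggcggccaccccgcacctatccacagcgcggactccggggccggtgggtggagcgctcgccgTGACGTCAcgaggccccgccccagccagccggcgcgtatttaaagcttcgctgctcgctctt

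The Egr2 window is chr10:67537619-67537868 on the plus strand, and holds a CArG box 72 to 63 bases before the start between TGACG cores at 111 and 55 bases. The Nr4a1 window is chr15:101266596-101266845 on the plus strand, with 4 cores, and the Nr4a2 window is chr2:57124004-57124253 on the minus strand, also with 4. Its RefSeq start lies 8965 bases upstream of the start of the main Nr4a2 transcript of GENCODE, so that the window belongs to another start than that transcript's. For Nr4a3 and Zfp36, searched but not printed, the RefSeq start lies 152 and 1025 bases downstream of the GENCODE start. For Dusp1, chr17:26508520-26508722 on the minus strand is printed, which stops 47 bases before the RefSeq start, where the annotated transcript of GENCODE begins. Its CRE lies 143 to 136 bases before the RefSeq start. The Plk2 window is chr13:110394794-110395043 on the plus strand, and its CRE lies 62 to 55 bases before the start.

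Depth ran from 16380889 to 23102081 estimated counts per library. Map3k14, which encodes NIK, was at 244.4 and 254.7 CPM (estimated counts scaled to library size with TMM factors) in doubly-activated and 220.0 and 217.1 CPM in NF-kB-activated cells, against 102.9 and 129.6 CPM in controls. Notch2 did not follow the Notch-activated label, with 284.1 and 278.3 CPM there and 651.5 and 689.7 CPM in controls. It was lower still in lymphoma (154.7 and 178.5 CPM). Doubly-activated cells had 702.3 and 752.8 CPM of Notch2, and NF-kB-activated cells had 794.6 and 772.5 CPM. The Notch target Heyl was at 50.9 and 44.1 CPM in Notch-activated cells against 0.43 and 0.381 CPM in controls. Heyl was at 38.9 and 44 CPM in lymphoma, 23.3 and 25.6 CPM in doubly-activated and 2.94 and 2.15 CPM in NF-kB-activated cells. The Notch-activated libraries are called Notch-labelled here. They stand apart in other ways. The top Ighv segment, taken in each library by itself, held 92.8% (95% Wilson interval 92.2% to 93.5%) and 93.8% (93.1% to 94.3%) of Ighv counts. In lymphoma the top segment held 92.3% and 92.1%, and in the other groups at most 7.29%. Whether libraries share the same segment was not compared. The 11 stromal and endothelial markers summed to 663.5 and 891.5 CPM in Notch-labelled libraries against 13.8 to 22.4 CPM elsewhere. The 6 B cell markers, among them Cd79a and Pax5, were above 0 in every library. Their sum was 4624.1 and 4484.2 CPM in lymphoma, 6349.6 to 6638.9 CPM in doubly-activated and NF-kB-activated, 2663.7 and 2473.3 CPM in Notch-labelled and 7381.1 and 7267.9 CPM in control libraries. The marginal zone marker Cr2 was at 28.5 and 23.3 CPM in lymphoma and 110.8 and 109.9 CPM in Notch-labelled libraries, against 1873.9 CPM or more elsewhere. Other markers of its list went the other way. Of the 8 marginal zone markers, 6 rose and only Cr2 fell in Notch-labelled cells against controls (edgeR adjusted p under 0.05). Of all genes 34.2% rose and 29.5% fell there. In lymphoma against doubly-activated cells 2 of the 8 rose and 4 fell (26.1% and 25.2% of all genes). Leaving out both Notch-labelled libraries changed 1 of the 40 member calls of the other 4 comparisons, that of Dusp1 given below. Whether replicate libraries stem from different animals is not labelled, and p-values then measure only the spread between libraries, which may be technical. The 2 control libraries differed in the Y-linked gene Ddx3y, with 59.8 against 0.653 CPM.

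The 2 control libraries differed from each other, and the difference is large for some of the 10 genes. Library 1 was higher than library 2 for 8 of the 10 (48.6% of all genes tested were higher in library 1), and over 2-fold higher for 3 (1.57% of all genes, while 4.39% differed over 2-fold in either direction): Plk2 with 17.6 against 4.35 CPM, Egr1 with 127.7 against 36 CPM and Dusp1 with 92.3 against 32.4 CPM. On the log2 scale of CPM + 0.5 these gaps were 1.90, 1.81 and 1.50, and 0.796%, 0.879% and 1.55% of all genes had a larger gap in either direction. By estimated counts, the ratio of library 1 to library 2 was 4.06 for Plk2 (exact 95% interval 3.16 to 5.26), 3.55 for Egr1 (3.25 to 3.88) and 2.85 for Dusp1 (2.59 to 3.14), where intervals cover counting error only. The gaps of the other 7 genes lay between -0.51 (Nr4a3) and 0.57 (Nr4a2), with Nr4a1 at 0.55, Ier2 at 0.26, Zfp36 at 0.23, Egr2 at 0.14 and Egr3 at -0.10. The median gap of the 10 was 0.41 and that of all genes 0.00.

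**Figure D1:**
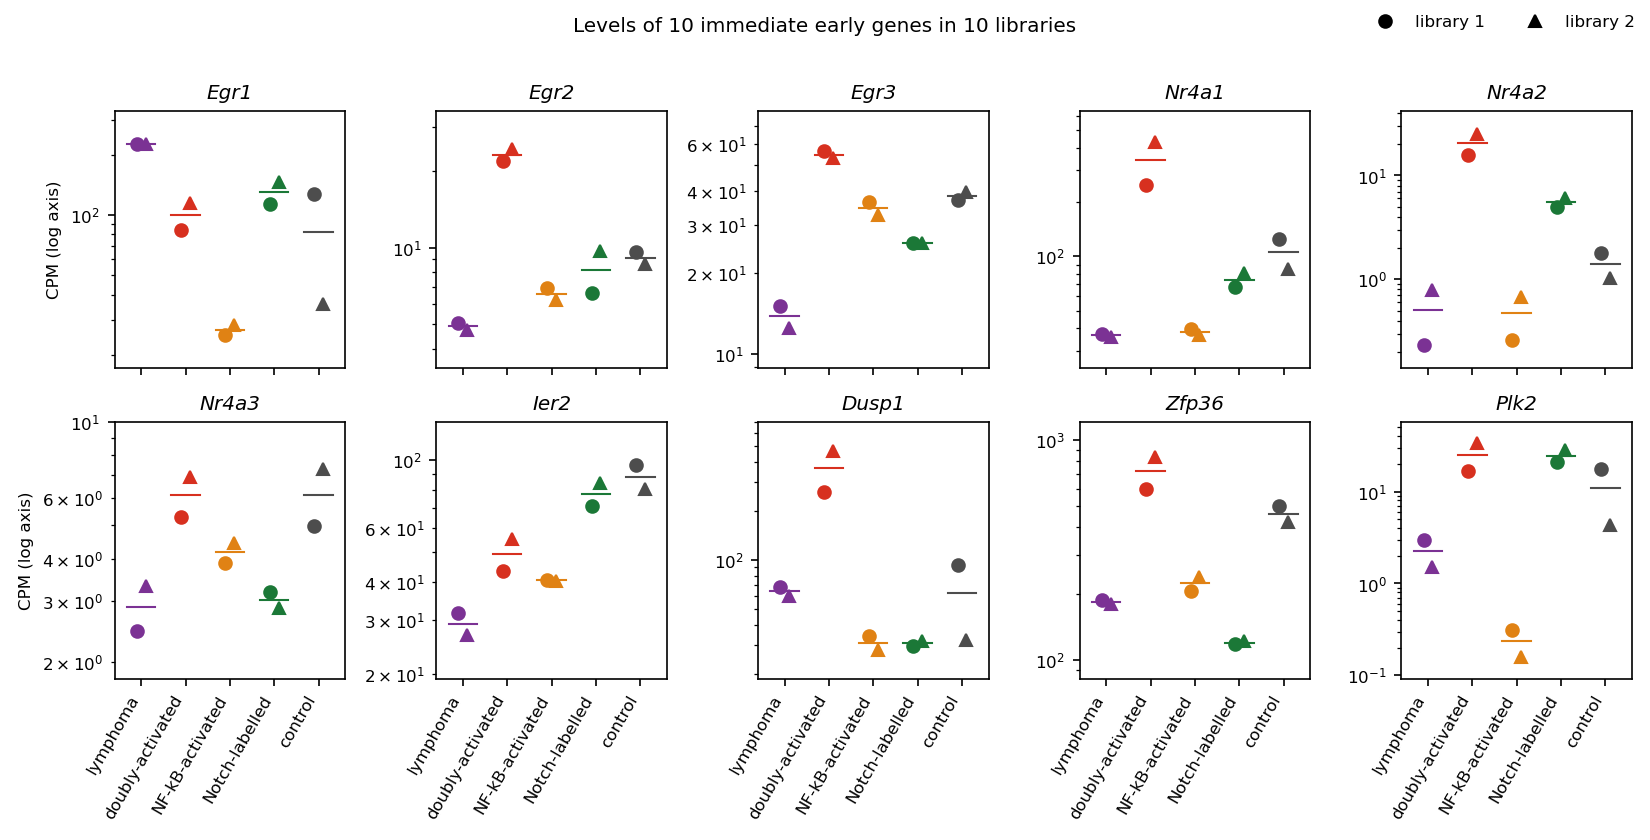
Level of each gene in CPM (log axis, its own range for each gene) in the 10 libraries, circles for library 1 and triangles for library 2, with a bar at the mean of the group. The 2 control libraries lie far apart for Egr1, Dusp1 and Plk2, and the doubly-activated libraries are highest for Nr4a1, Nr4a2, Dusp1 and Zfp36.

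Other genes moved with the control gap. Of 35 other immediate early genes, 26 were higher in control library 1 and 9 over 2-fold higher, among them Fosb (182.0 against 29.6 CPM), Fos (229.8 against 84.2 CPM) and Junb (383.5 against 159.8 CPM). All 11 heat shock genes were higher in library 1, with Hspa1a at 233.6 against 3.05 CPM and Hspa1b at 559.0 against 17.6 CPM, genes that heat and other protein damage induce. All 15 macrophage markers were lower in library 1, with a summed level of 93.7 against 380.9 CPM, and the 8 neutrophil markers summed to 0.307 CPM in library 1, where 5 of them were at 0, against 16.7 CPM in library 2. All 8 marginal zone markers were higher in library 1, with a summed level of 4440.9 against 3161.1 CPM. The Y-linked gene Ddx3y was at 59.8 CPM in library 1 and 0.653 CPM in library 2. The part of each of these in the gap of the 10 genes was not tested. Ddx3y also differed between groups. It was at 144.4 and 154.2 CPM in lymphoma, 109.6 and 186.6 CPM in doubly-activated and 172.7 and 178.2 CPM in NF-kB-activated cells. Notch-labelled cells had 2.4 and 1.88 CPM. Its part in the group differences was not tested.

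Within the other groups none of the 10 genes differed over 2-fold between the libraries on the scale of log2 (CPM + 0.5), where 2.02% of all genes did so in lymphoma, 2.31% in doubly-activated, 1.28% in Notch-labelled and 2.27% in NF-kB-activated cells. The widest gaps there were -0.97 for Plk2 and -0.84 for Dusp1 in doubly-activated cells, -0.81 for Nr4a2 in lymphoma cells and -0.80 for Nr4a1 in doubly-activated cells. In CPM alone Nr4a2 differed by more, with 0.231 and 0.782 CPM in lymphoma and 0.262 and 0.681 CPM in NF-kB-activated cells, from 5 to 16 estimated counts a library, as did Plk2 in NF-kB-activated cells, with 0.315 and 0.157 CPM from 6 and 3 counts. Doubly-activated library 1 was higher than library 2 for 1 of the 10, Egr3 (48.8% of all genes), with a median gap of -0.47, and for 4 of 35 other immediate early genes. There Hspa1a was at 126.3 and 254.8 CPM, against 0.293 to 6.70 CPM in libraries of lymphoma, NF-kB-activated or Notch-labelled cells and 233.6 and 3.05 CPM in controls.

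**Figure D2:**
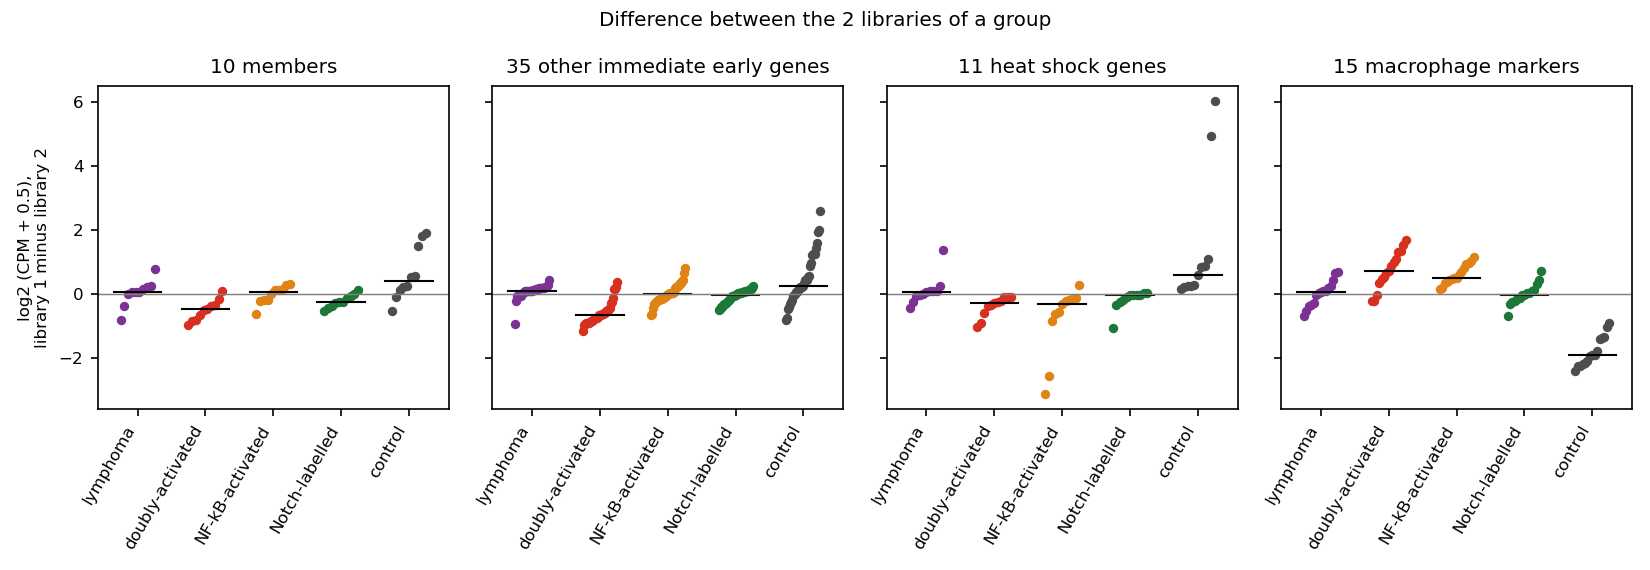
Difference of log2 (CPM + 0.5) between library 1 and library 2 of each group, a point per gene and a line at the median, for the 10 genes and 3 other lists. In controls 8 of the 10 genes, 26 of 35 other immediate early genes and 11 of 11 heat shock genes are above 0 while 15 of 15 macrophage markers are below it.

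Set beside the control gap, the difference of a group mean from the control mean was the larger for 8 of the 10 genes in lymphoma, for 7 in both doubly-activated and NF-kB-activated and for 5 in Notch-labelled cells. Egr1 is the gene whose gap exceeded its difference in all 4 groups. The sign of the difference was the same against either control library for all 10 genes in NF-kB-activated and Notch-labelled cells. It depended on the control library for Egr1 and Nr4a3 in doubly-activated cells and for Dusp1 in lymphoma cells. Egr1 in doubly-activated cells was -0.36 against control library 1 and 1.46 against library 2, and Dusp1 in lymphoma cells was -0.53 and 0.97, on the log2 scale. All 4 sets of differences share the same 2 control libraries. Neither these counts nor those of the sign were made over all genes, so they describe the 10 genes only. The median absolute control gap was 0.53 for the 10 and 0.19 for all genes tested.

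**Figure D3:**
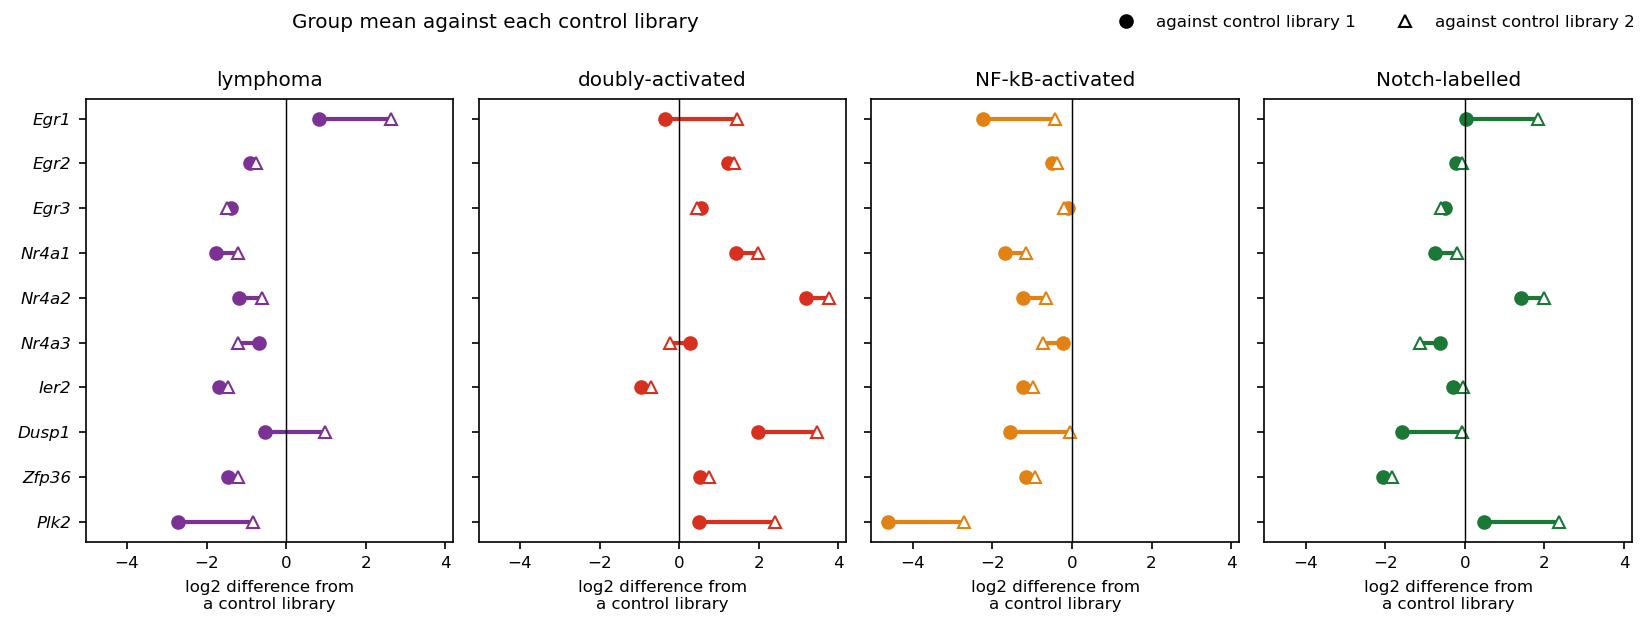
Difference of the group mean from control library 1 (circles) and from control library 2 (open triangles), in log2 (CPM + 0.5), joined by a line for each gene and group. The lines are longest for Plk2, Egr1 and Dusp1, and cross 0 for Egr1 and Nr4a3 in doubly-activated and for Dusp1 in lymphoma cells.

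The 2 lymphoma libraries had lower levels of most of the 10 genes than doubly-activated cells. The 2 groups also differ in tissue, lymphoma against lymph node. The top Ighv segment held 92.3% and 92.1% of Ighv counts in the lymphoma libraries, and whether these stem from different animals is not labelled. In edgeR's quasi-likelihood test with adjustment over 15583 genes, 9 of the 10 fell and none rose, where 25.2% of all genes fell and 26.1% rose. The median log2 fold change was -2.12 against 0.01 for all genes, and in 9 the groups did not overlap in the lower direction (36.1% of all genes). Egr1 alone was higher in lymphoma, and did not pass the test. With the 9 genes, 9 of 11 heat shock genes fell (median -1.59) and 6 of 6 B cell markers fell (median -0.52), while 4 of 5 plasma cell markers rose (median 2.69), and the part of these in the members' fall was not tested.

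Doubly-activated cells had higher levels than controls for 6 of the 10 genes that passed the test, Egr2, Egr3, Nr4a1, Nr4a2, Dusp1 and Zfp36, while Ier2 fell. Of all genes 10.5% rose and 9.30% fell. The median log2 fold change of the 10 was 0.92 against 0.00, and the same 6 genes were higher without overlap (28.7% of all genes). Without control library 1, 8 rose and 1 fell; without control library 2, 4 rose and 1 fell, as without doubly-activated library 2. With the compared groups alone 3 rose and 1 fell. In the same comparison 9 of 15 macrophage markers fell (median -2.94), 6 of 8 marginal zone markers rose (median 1.19) and 2 of 11 heat shock genes rose, 7 being higher without overlap. Their part in these differences was not tested.

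Against NF-kB-activated cells, doubly-activated cells were higher in CPM in all 10 genes without overlap (29.5% of all genes). Of the 10, 7 rose while none fell, where 6.62% of all genes rose and 7.28% fell. The median was 1.86 against 0.00. This comparison does not use the control libraries' levels, though they share in the estimate of the spread. With 1 library left out, 5 to 8 rose. Of the heat shock genes 7 of 11 rose and all 11 were higher without overlap, 5 of 8 marginal zone markers rose, and 7 of 8 neutrophil markers (median -6.27) and 7 of 15 macrophage markers (median -2.78) fell, and their part was not tested.

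In CPM, NF-kB-activated cells were lower than controls in 9 of the 10 genes without overlap (25.6% of all genes). Of the 10, 4 fell, Nr4a1, Ier2, Zfp36 and Plk2, while none rose. Of all genes 8.72% rose and 6.60% fell. The median was -1.08 against 0.00. Without control library 1, 3 fell, and without control library 2, 5 fell. With NF-kB-activated library 1 or library 2 left out, 2 genes fell. Neutrophil markers summed to 414.7 and 124.6 CPM in NF-kB-activated cells against 0.307 and 16.7 CPM in controls, and their part in these differences was not tested.

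In Notch-labelled cells 1 of the 10 rose, Nr4a2, and 3 fell, Egr3, Nr4a3 and Zfp36, where 34.2% of all genes rose and 29.5% fell. The share of the 10 that was called is below that of all genes. The median was -0.34 against 0.07. Without control library 1, 3 rose and 3 fell. The stromal markers given above move with this group, and their part was not tested.

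**Figure D4:**
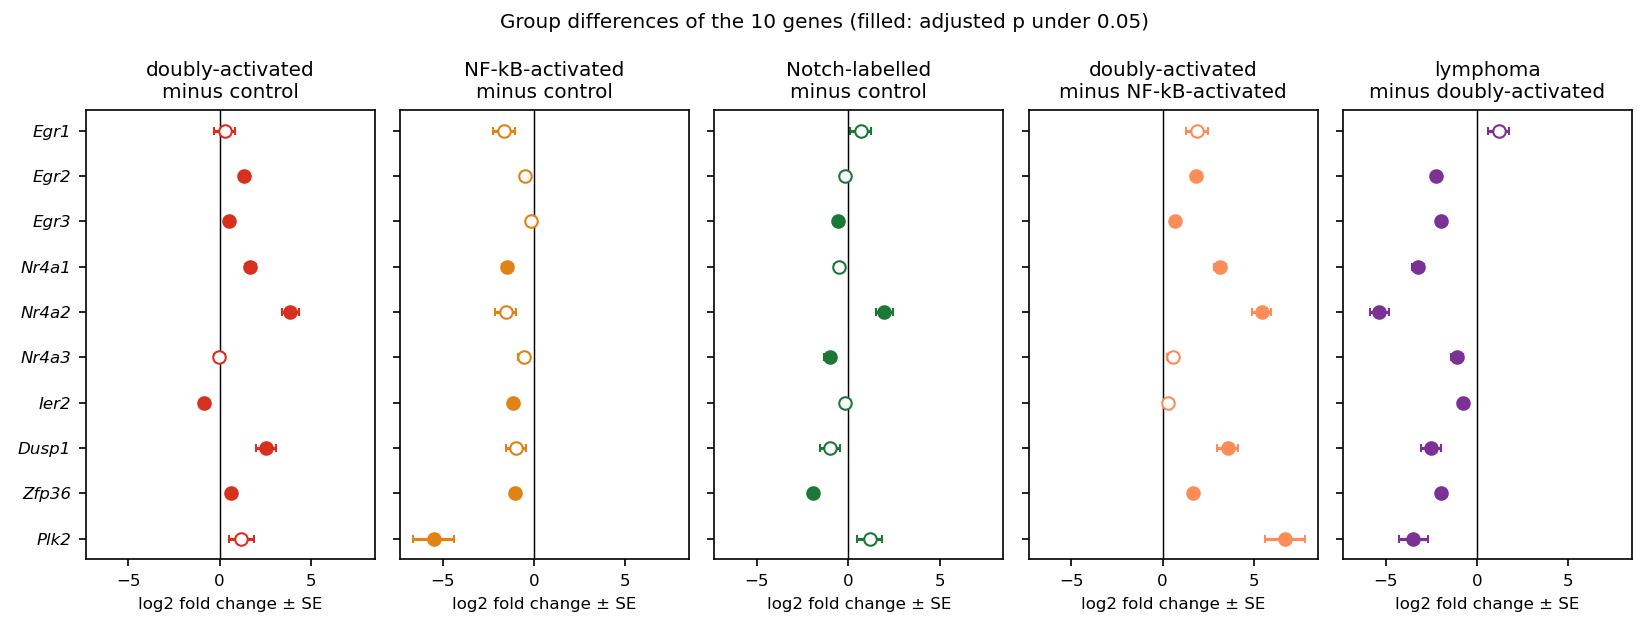
Log2 fold change with its SE of the 10 genes in 5 comparisons from edgeR's fit of all 10 libraries (2 libraries a group); filled points have an adjusted p under 0.05 over all genes. The 9 filled points of lymphoma minus doubly-activated all lie below 0, and the 7 filled points of doubly-activated minus NF-kB-activated all lie above it.

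Among the nuclear receptors, Nr4a1 (Nur77, an orphan receptor induced by antigen receptor signals in B cells) was highest in doubly-activated cells. It was at 37.4 and 35.6 CPM in lymphoma, 247.8 and 431.4 CPM in doubly-activated, 39.8 and 36.6 CPM in NF-kB-activated, 67.8 and 80.7 CPM in Notch-labelled and 124.7 and 85.3 CPM in control cells. Both doubly-activated libraries were above all others, and both lymphoma and NF-kB-activated libraries below both controls. Nr4a1 fell in lymphoma against doubly-activated cells (log2 -3.22 ± 0.32, edgeR adjusted p = 0.000209). In doubly-activated cells it rose against controls (1.69 ± 0.29, adjusted p = 0.00956 by edgeR) and against NF-kB-activated cells (3.15 ± 0.32, adjusted p = 0.00179). In NF-kB-activated cells it fell against controls (-1.46 ± 0.30, adjusted p = 0.0238). The rise against controls did not pass without control library 2 (adjusted p = 0.0627) or in a fit of the compared groups alone (0.0929). The fall in NF-kB-activated cells did not pass when NF-kB-activated library 1 (0.113) or 2 (0.136) or control library 1 (0.106) was left out, or without a filter on low counts (0.0525). Notch-labelled cells did not pass against controls (-0.50 ± 0.29, adjusted p = 0.183), except without doubly-activated library 1 (0.018) or 2 (0.024).

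Nr4a2 (Nurr1, a related receptor best known for dopamine neurons) had the widest change of the 3 receptors. It was at 0.231 and 0.782 CPM in lymphoma (5 and 16 estimated counts), 15.8 and 25.3 CPM in doubly-activated, 0.262 and 0.681 CPM in NF-kB-activated (5 and 13 counts), 5 and 6.08 CPM in Notch-labelled and 1.78 and 1.03 CPM in control cells. Doubly-activated and Notch-labelled libraries were above every other library. Nr4a2 fell in lymphoma against doubly-activated cells (log2 -5.33 ± 0.52, edgeR adjusted p = 4.72e-06). In doubly-activated cells it rose against controls (3.87 ± 0.47, adjusted p = 0.00013) and against NF-kB-activated cells (5.42 ± 0.53, adjusted p = 7.87e-05). In Notch-labelled cells it rose too (1.98 ± 0.46, adjusted p = 0.00264). These 4 calls held under every alternative tried. NF-kB-activated cells did not pass against controls (-1.55 ± 0.58, adjusted p = 0.099; DESeq2 0.045).

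Nr4a3 (Nor1, the third receptor of the family) was low and varied least. It was at 2.45 and 3.32 CPM in lymphoma, 5.29 and 6.93 CPM in doubly-activated, 3.88 and 4.45 CPM in NF-kB-activated, 3.2 and 2.87 CPM in Notch-labelled and 4.98 and 7.29 CPM in control cells. In CPM the doubly-activated libraries lay between the control libraries. TPM, which was not tested, gave another order. Controls were at 1.22 and 2.74 TPM, Notch-labelled cells at 2.12 and 1.84 and NF-kB-activated cells at 2.28 and 3.05. Doubly-activated cells were at 1.77 and 4.14 TPM and lymphoma cells at 0.537 and 0.931. The fall in Notch-labelled cells given below is one of summed counts and is not seen in TPM, where both group means were 1.98. Nr4a3 fell in lymphoma against doubly-activated cells (log2 -1.08 ± 0.31, edgeR adjusted p = 0.0108), but not without doubly-activated library 2 (0.085) or lymphoma library 1 (0.0856). It fell in Notch-labelled cells against controls (-1.02 ± 0.31, adjusted p = 0.0114), but not without Notch-labelled library 2 (0.0725) or control library 2 (0.0841). It did not pass in doubly-activated cells against controls (-0.01 ± 0.30, adjusted p = 1) or against NF-kB-activated cells (0.55 ± 0.30, adjusted p = 0.262), nor in NF-kB-activated cells against controls (-0.56 ± 0.30, adjusted p = 0.264).

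Egr1, the founding member of the EGR zinc finger factors and a target of SRF and ELK, followed another order. It was at 228.1 and 226.0 CPM in lymphoma, 83.8 and 115.4 CPM in doubly-activated, 25 and 28.2 CPM in NF-kB-activated, 113.6 and 147.2 CPM in Notch-labelled and 127.7 and 36 CPM in control cells. Lymphoma libraries were above and NF-kB-activated libraries below every other library, while the doubly-activated values and Notch-labelled library 1 lay between the control libraries. Egr1 passed no test in the fit of all libraries. Against doubly-activated cells lymphoma differed by log2 1.19 ± 0.57 (edgeR adjusted p = 0.14), and this passed in the fit of the compared groups alone (5.73e-05), without control library 1 (0.000619) and without control library 2 (0.000605). NF-kB-activated minus control was -1.62 ± 0.60 (adjusted p = 0.161), and passed without control library 2 (0.000357) and in DESeq2 (0.0201). Doubly-activated minus NF-kB-activated was 1.90 ± 0.60 (adjusted p = 0.108), and passed with the compared groups alone (0.00184), without control library 1 (0.000519), without control library 2 (0.00051) and in DESeq2 (0.00554). Doubly-activated minus control was 0.29 ± 0.57 (adjusted p = 0.803) and Notch-labelled minus control 0.68 ± 0.57 (adjusted p = 0.343), and without control library 1 these were at 0.00396 and 0.000279.

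Egr2 and Egr3, relatives that restrain antigen receptor signalling in lymphocytes, were steadier between libraries. Egr2 was at 5.04 and 4.74 CPM in lymphoma, 22 and 24.5 CPM in doubly-activated, 6.92 and 6.23 CPM in NF-kB-activated, 6.6 and 9.69 CPM in Notch-labelled and 9.59 and 8.65 CPM in control cells. Both doubly-activated libraries were above all others. Egr2 fell in lymphoma against doubly-activated cells (log2 -2.25 ± 0.21, edgeR adjusted p = 2.25e-06). It rose in doubly-activated cells against controls (1.35 ± 0.20, adjusted p = 0.000501) and against NF-kB-activated cells (1.82 ± 0.21, adjusted p = 0.000177). Neither NF-kB-activated (-0.47 ± 0.21, adjusted p = 0.165) nor Notch-labelled cells (-0.16 ± 0.20, adjusted p = 0.505) passed against controls.

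Egr3 was at 15.1 and 12.5 CPM in lymphoma, 56.4 and 53.1 CPM in doubly-activated, 36.6 and 32.7 CPM in NF-kB-activated, 25.8 and 25.8 CPM in Notch-labelled and 37 and 39.6 CPM in control cells. The groups did not overlap, and doubly-activated libraries were highest. Egr3 fell in lymphoma against doubly-activated cells (log2 -1.99 ± 0.12, edgeR adjusted p = 4.66e-08) and in Notch-labelled cells against controls (-0.57 ± 0.11, adjusted p = 0.000832). It rose in doubly-activated cells against controls (0.52 ± 0.11, adjusted p = 0.00625) and against NF-kB-activated cells (0.66 ± 0.11, adjusted p = 0.00251). NF-kB-activated minus control was -0.14 ± 0.11 (adjusted p = 0.467). The 7 calls of Egr2 and Egr3 held under every alternative tried.

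Dusp1, the phosphatase that inactivates p38 and JNK, had its highest level in doubly-activated cells. It was at 67.7 and 60.3 CPM in lymphoma, 261.3 and 468.5 CPM in doubly-activated, 34.1 and 27.9 CPM in NF-kB-activated, 29.5 and 31.9 CPM in Notch-labelled and 92.3 and 32.4 CPM in control cells. Both doubly-activated libraries were above all others, and control library 1 was above both lymphoma libraries while control library 2 was below them. Dusp1 fell in lymphoma against doubly-activated cells (log2 -2.51 ± 0.54, edgeR adjusted p = 0.0118), but not without doubly-activated library 2 (0.0513), lymphoma library 1 (0.0595) or lymphoma library 2 (0.0678). It rose in doubly-activated against NF-kB-activated cells (3.56 ± 0.57, adjusted p = 0.0161), but not without NF-kB-activated library 1 (0.0984) or 2 (0.117) or doubly-activated library 2 (0.0803). Against controls it rose in doubly-activated cells by 2.55 ± 0.54 (adjusted p = 0.0284), a call lost in 10 of 18 alternatives. Among these were the compared groups alone (0.203), leaving out doubly-activated library 2 (0.127), any NF-kB-activated, Notch-labelled or lymphoma library (0.0533 to 0.0649) and both Notch-labelled libraries (0.0598). NF-kB-activated cells were at 0.499 times the control level (adjusted p = 0.326), and Notch-labelled minus control was -1.02 ± 0.55 (adjusted p = 0.161; 0.0177 without control library 2).

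The Dusp1 reads were divided among a protein-coding transcript and transcripts with a retained intron. The protein-coding Dusp1-202 held 57.9% and 63.2% of the gene's estimated counts in lymphoma, 82.1% and 86.3% in doubly-activated, 56.0% and 39.9% in NF-kB-activated cells, 82.6% and 82.3% in Notch-labelled cells and 68.1% and 73.3% in control cells. The share was thus high in Notch-labelled cells, where the gene's level was low, and no test of it was made. Nr4a1, Egr3, Ier2, Zfp36 and Plk2 have a single listed transcript each, so their counts could not be split in this way.

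Zfp36, which encodes tristetraprolin, a protein that binds AU-rich elements and speeds the decay of the mRNA, differed in all 5 comparisons. It was at 186.9 and 178.8 CPM in lymphoma, 599.6 and 838.1 CPM in doubly-activated, 206.3 and 239.0 CPM in NF-kB-activated, 118.1 and 121.9 CPM in Notch-labelled and 499.1 and 424.6 CPM in control cells. The groups did not overlap, with doubly-activated cells highest and Notch-labelled cells lowest. Zfp36 fell in lymphoma against doubly-activated cells (log2 -1.97 ± 0.15, edgeR adjusted p = 1.73e-06), in NF-kB-activated cells against controls (-1.05 ± 0.15, adjusted p = 0.000759) and in Notch-labelled cells against controls (-1.94 ± 0.15, adjusted p = 1.31e-06). It rose in doubly-activated against NF-kB-activated cells (1.69 ± 0.15, adjusted p = 8.5e-05) and against controls (0.64 ± 0.14, adjusted p = 0.011). The last did not pass without control library 2 (0.0892), without doubly-activated library 2 (0.068) or with the compared groups alone (0.0604).

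Ier2, which encodes a nuclear protein, was the member that fell in doubly-activated cells. It was at 31.6 and 26.8 CPM in lymphoma, 43.5 and 55.1 CPM in doubly-activated, 40.6 and 40.4 CPM in NF-kB-activated, 70.7 and 84.1 CPM in Notch-labelled and 96.2 and 80.5 CPM in control cells. Every lymphoma, doubly-activated and NF-kB-activated library was below every control and Notch-labelled library. Ier2 fell in lymphoma against doubly-activated cells (log2 -0.75 ± 0.14, edgeR adjusted p = 0.00078), in doubly-activated cells against controls (-0.84 ± 0.14, adjusted p = 0.00103) and in NF-kB-activated cells against controls (-1.12 ± 0.14, adjusted p = 0.000161). These 3 calls held under every alternative tried. It did not pass in doubly-activated against NF-kB-activated cells (0.28 ± 0.14, adjusted p = 0.212) or in Notch-labelled cells against controls (-0.19 ± 0.13, adjusted p = 0.228).

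Plk2, a polo-like kinase induced by serum and stress, was lowest in NF-kB-activated cells. It was at 2.96 and 1.51 CPM in lymphoma, 16.8 and 33.5 CPM in doubly-activated, 0.315 and 0.157 CPM in NF-kB-activated (6 and 3 estimated counts), 20.9 and 28.3 CPM in Notch-labelled and 17.6 and 4.35 CPM in control cells. Both NF-kB-activated libraries were below all others, and doubly-activated and control cells overlapped. In a bulk library fewer cells with the transcript and less of it per cell cannot be told apart. Plk2 fell in lymphoma against doubly-activated cells (log2 -3.48 ± 0.78, edgeR adjusted p = 0.0108), but not without lymphoma library 2 (0.0614). It fell in NF-kB-activated cells against controls (-5.49 ± 1.12, adjusted p = 0.0243), but not without NF-kB-activated library 1 (0.147) or 2 (0.162). It rose in doubly-activated against NF-kB-activated cells (6.69 ± 1.08, adjusted p = 0.0124), but not without NF-kB-activated library 1 (0.0952) or 2 (0.108). Against controls, doubly-activated cells (1.20 ± 0.68, adjusted p = 0.294) and Notch-labelled cells (1.17 ± 0.67, adjusted p = 0.177) did not pass, but did without control library 1 (0.016 and 0.0053).

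Between genes, levels were compared per transcript length, in TPM. Zfp36 had the highest TPM of the 10 in every group, with a mean of 127.7 ± 3.69 in lymphoma, 560.8 ± 114.1 in doubly-activated, 191.0 ± 22 in NF-kB-activated, 106.1 ± 3.43 in Notch-labelled and 390.3 ± 43 in control cells (SD, n = 2 each). The TPM of the next gene was Egr1 in lymphoma (85.6 ± 4.21), Dusp1 in doubly-activated (260.0 ± 98) and Ier2 in the NF-kB-activated (41.7 ± 0.332), Notch-labelled (82.2 ± 10.9) and control cells (89.7 ± 10.9). In doubly-activated cells the TPM of Dusp1 and Nr4a1 (185.8 ± 65.5) overlapped, as did those of Ier2 (46.2 ± 6.24) and Egr1 (42.3 ± 8.03). Within each doubly-activated library Dusp1 was above Nr4a1 and Ier2 above Egr1. In controls Dusp1 (51.6 ± 33.5 TPM) and Egr1 (37.8 ± 29.9 TPM) overlapped each other, Nr4a1 (62.4 ± 16.3 TPM) and Egr3 (42.2 ± 2.22 TPM). Within each control library Nr4a1 was above Egr3 and Egr1, and Dusp1 was above Egr1. Nr4a2 or Nr4a3 was lowest in TPM in lymphoma (Nr4a2, 0.228 ± 0.192), doubly-activated (Nr4a3, 2.96 ± 1.67), Notch-labelled (Nr4a3, 1.98 ± 0.198) and control cells (Nr4a2, 0.905 ± 0.321), and Plk2 in NF-kB-activated cells (0.124 ± 0.0573), where it overlapped Nr4a2 (0.228 ± 0.0919).

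The other genes of the response were taken from lists, and some of those called are named, not all of the most changed. Of 35 other immediate early genes, 4 rose and 24 fell in lymphoma against doubly-activated cells, and 21 rose and 2 fell in doubly-activated cells against controls. In doubly-activated against NF-kB-activated cells 26 rose and 1 fell, in NF-kB-activated cells against controls 2 rose and 4 fell, and in Notch-labelled cells 9 rose and 14 fell. Their medians were -1.55, 1.40, 1.78, -0.30 and -0.62 in that order. When 1 library was left out, 15 to 24 rose in doubly-activated cells against controls, and 13 to 26 against NF-kB-activated cells (13 without either NF-kB-activated library and 17 without doubly-activated library 2), while with the compared groups alone 10 rose against controls and 17 against NF-kB-activated cells. The 4 falls in NF-kB-activated cells were 1 without NF-kB-activated library 2, 2 without NF-kB-activated library 1, control library 1 or any lymphoma or Notch-labelled library, 9 without either doubly-activated library, 10 without control library 2 and 13 in DESeq2. In Notch-labelled cells 7 to 11 rose and 10 to 17 fell with 1 library left out, and in lymphoma 3 or 4 rose and 19 to 26 fell. Over all genes tested 26.1% rose and 25.2% fell in lymphoma against doubly-activated cells, 10.5% and 9.30% in doubly-activated cells against controls, 6.62% and 7.28% in doubly-activated against NF-kB-activated cells, 8.72% and 6.60% in NF-kB-activated cells and 34.2% and 29.5% in Notch-labelled cells against controls. The counts of this list and of those that follow are to be read against these shares.

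Atf3, a stress-induced transcription factor, was at 44.0 and 75.8 CPM in doubly-activated, 1.52 and 1.15 CPM in NF-kB-activated and 1.23 and 0.435 CPM in control cells. It rose against NF-kB-activated cells (log2 5.48 ± 0.39, edgeR adjusted p = 3e-05) and controls (6.19 ± 0.42, adjusted p = 6.66e-06). Tnfaip3, an inhibitor of NF-kB signalling, was at 390.8 and 613.0 CPM in doubly-activated and 76.5 and 64.2 CPM in control cells (2.84 ± 0.19, adjusted p = 2.01e-05). Maff rose in the same comparison (3.33 ± 0.32, adjusted p = 1.66e-05), and Maff, Gadd45b and the clock gene Per1 rose in doubly-activated against NF-kB-activated cells. The 2 that fell in doubly-activated cells against controls were Btg2 and Mcl1, and Mcl1 also fell against NF-kB-activated cells. In lymphoma Mcl1, Btg2, Fosl2 and Ier3 rose against doubly-activated cells. In NF-kB-activated cells Nfkbia, the inhibitor of NF-kB, rose against controls (0.97 ± 0.09, adjusted p = 2.2e-05), as did Tnfaip3, and Btg2, Kdm6b, Fos and Klf6 fell. Of these calls, those of Ier3 in lymphoma, Tnfaip3, Kdm6b, Fos and Klf6 in NF-kB-activated and Mcl1 in doubly-activated cells against controls were lost when 1 library or another was left out.

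In Notch-labelled cells Ccn1 was at 80.8 and 111.9 CPM against 0.0615 and 0 CPM in controls. It is a secreted matrix protein also made by stromal cells, whose markers are high in these libraries, and the part of these was not tested. Btg1 fell there (log2 -1.97 ± 0.13, edgeR adjusted p = 1.97e-07).

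Of 18 relatives and partners of the 10 genes, 4 rose and 11 fell in lymphoma against doubly-activated cells, 3 rose and 4 fell in doubly-activated cells against controls, 6 and 3 against NF-kB-activated cells, 3 and 7 in NF-kB-activated cells and 6 and 9 in Notch-labelled cells against controls. The shares that rose in lymphoma and in Notch-labelled cells are near the 26.1% and 34.2% of all genes. Nab1, which encodes a corepressor that binds EGR proteins, was at 83.2 and 79.5 CPM in lymphoma, 199.8 and 208.7 CPM in doubly-activated, 84.4 and 83.6 CPM in NF-kB-activated and 131.1 and 118.9 CPM in control cells. It fell in lymphoma (log2 -1.33 ± 0.08, edgeR adjusted p = 3.72e-08), rose in doubly-activated cells against controls (0.71 ± 0.08, adjusted p = 4.05e-05) and fell in NF-kB-activated cells (-0.57 ± 0.08, adjusted p = 0.000282). Nab2, the other corepressor, was at 12.8 and 10.8 CPM in doubly-activated cells against 42.6 and 71.6 CPM in controls and fell (-2.27 ± 0.27, adjusted p = 0.000344). Zfp36l2, a relative of Zfp36, was at 117.5 and 118.7 CPM in doubly-activated cells against 593.7 and 571.0 CPM in controls and fell (-2.30 ± 0.16, adjusted p = 8.84e-06), while Zfp36 rose there.

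The phosphatases related to Dusp1 went in several directions. Dusp16 was at 58.7 and 61.1 CPM in lymphoma, 197.7 and 224.4 CPM in doubly-activated and 89.9 and 80.5 CPM in control cells, and it fell in lymphoma (log2 -1.82 ± 0.09, edgeR adjusted p = 9.68e-09) and rose in doubly-activated cells (1.31 ± 0.09, adjusted p = 8.88e-07). Dusp6, which acts on ERK, fell in lymphoma (-2.11 ± 0.08, adjusted p = 1.61e-09) and rose in NF-kB-activated cells against controls (0.64 ± 0.08, adjusted p = 0.000141). Dusp4 was at 0.555 and 0.489 CPM in lymphoma, 7.41 and 11.4 CPM in doubly-activated and 27.6 and 32.8 CPM in NF-kB-activated cells, and fell both in lymphoma against doubly-activated cells (-4.15 ± 0.30, adjusted p = 2.75e-07) and in doubly-activated against NF-kB-activated cells (-1.69 ± 0.22, adjusted p = 0.000434). Dusp2 fell in NF-kB-activated cells (-1.09 ± 0.15, adjusted p = 0.000695). In lymphoma Plk1, Plk4, Dusp14 and Rxra rose.

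Of 21 upstream kinases and factors, 2 rose and 11 fell in lymphoma against doubly-activated cells, 3 rose and 6 fell in doubly-activated cells against controls, none rose and 2 fell against NF-kB-activated cells, 4 rose and 4 fell in NF-kB-activated cells and 2 rose and 12 fell in Notch-labelled cells against controls. The rises against controls in doubly-activated cells and the falls against NF-kB-activated cells are near the 10.5% and 7.28% of all genes. Map2k1, the MAP kinase kinase MEK1, was at 124.4 and 115.4 CPM in lymphoma, 251.6 and 272.5 CPM in doubly-activated, 254.5 and 252.4 CPM in NF-kB-activated and 168.8 and 161.5 CPM in control cells. It fell in lymphoma (log2 -1.13 ± 0.08, edgeR adjusted p = 1.76e-07), and rose in doubly-activated (0.67 ± 0.08, adjusted p = 7.57e-05) and NF-kB-activated cells (0.62 ± 0.08, adjusted p = 0.000166) against controls. Elk3, an ETS partner of SRF, fell in lymphoma (-2.30 ± 0.13, adjusted p = 3.19e-08), and Elk4, another, fell in Notch-labelled cells (-1.20 ± 0.09, adjusted p = 2.26e-07). Nfatc1 and Mapk9 rose in lymphoma.

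Of 9 mRNAs known to be bound by ZFP36, Il6, Il2 and Csf2 were below the filter and 6 were tested. In lymphoma against doubly-activated cells 1 rose and 2 fell, in doubly-activated cells against controls 3 rose and 1 fell, against NF-kB-activated cells 3 rose and 2 fell, 1 rose and 1 fell in NF-kB-activated cells against controls, and 3 rose and 1 fell in Notch-labelled cells. Besides Il10, Ccl3 and Ccl4 rose in doubly-activated cells against controls. In edgeR's fit of the compared groups alone neither passed (adjusted p = 0.0713 and 0.074). The rise of Ccl3 was also lost without control library 2 or doubly-activated library 2. That of Ccl4 was lost in DESeq2 (0.0587), without control library 2 and without any NF-kB-activated, Notch-labelled or doubly-activated library. Il10 was at 30.0 and 29.4 CPM in lymphoma, 4.18 and 6.28 CPM in doubly-activated, 0.681 and 0.210 CPM in NF-kB-activated, 16.3 and 15.5 CPM in Notch-labelled and 0.184 and 0.272 CPM in control cells. It rose in lymphoma against doubly-activated cells (log2 2.51 ± 0.26, edgeR adjusted p = 5.32e-06) and in doubly-activated cells against controls (4.46 ± 0.42, adjusted p = 1.53e-05). Tnf was at 9.08 and 6.41 CPM in doubly-activated, 21.5 and 25.7 CPM in NF-kB-activated and 12.4 and 21.6 CPM in control cells, and fell in doubly-activated cells against NF-kB-activated cells (-1.60 ± 0.26, adjusted p = 0.00304) and against controls (-1.13 ± 0.26, adjusted p = 0.0124). The last did not pass without control library 2 (0.0712) or doubly-activated library 2 (0.116).

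The genes with the pattern most like that of a member were found by the root mean square difference of log2 (CPM + 1), each gene centred on its own mean, over the 10 libraries and 9971 genes with a mean of at least 5 CPM. For Nr4a1 the nearest was Junb, an AP-1 subunit, at 0.30, where the median over genes was 1.23, followed by Gla, Ptger4, Egr2 and Klf4. Junb was at 96.8 and 82.1 CPM in lymphoma, 422.6 and 746.2 CPM in doubly-activated, 101.5 and 113.7 CPM in NF-kB-activated, 147.7 and 151.1 CPM in Notch-labelled and 383.5 and 159.8 CPM in control cells. For Zfp36 the nearest was Zbtb10 at 0.23 against a median of 0.98, followed by Tiparp, Rel, Arl4a and Ccr7. For Egr1 it was Rgs10 at 0.41 against 1.16, followed by Gadd45a, Fanca, Irf4 and Plac8, and for Plk2 it was Srgap3 at 0.86 against 1.83, followed by Mfhas1, Sgk1, Dusp5 and Nr4a2. Irf4 was at 1068.4 and 1198.9 CPM in lymphoma and 241.9 and 197.4 CPM in controls.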

How the data were processed

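RNA of sorted B lineage cells was measured in 10 libraries, 2 for each of 5 groups. The authors deposited, per the file headers, estimated counts (est_counts) and TPM of each transcript in 1 file per library. Quantification used kallisto 0.44.0 with mm10, per the submitters' processing notes; the sources used here name no transcript release. Of 88198 transcripts 86031 were matched to GENCODE M21 and summed to 30205 genes; the 2167 unmatched held 1.09% to 1.38% of the counts. Estimated counts were rounded. TPM were summed per gene.

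Tests used edgeR 4.0.16 under R 4.3.3, with filterByExpr (minimum count 10, minimum total 15), TMM scaling and a robust quasi-likelihood fit of all 10 libraries with 5 residual degrees of freedom. Tests were two-sided, with Benjamini-Hochberg adjustment over 15583 genes and calls at 0.05. Counts of the 2 libraries of a group differed beyond sampling noise, with chi-square per degree of freedom 4.31 to 20.3. Depth was 16380889 to 23102081 estimated counts. Library gaps used log2 (CPM + 0.5). The members, lists and alternatives were chosen with earlier results of these data known. Named were all members in every comparison. From 4 lists, genes were picked among the 8 called with the smallest p in a comparison and the genes of any list with 5 or fewer calls. Not all genes that meet this are named. Genes resembling Egr1, Nr4a1, Zfp36 and Plk2 were the 5 nearest. Of the listed genes, 2 are not reported here. The fit was tested on simulated data. Alternatives were DESeq2 1.42.0, other scalings and filters, the compared groups alone, each library left out and a replicate block.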

Additional observations from a re-analysis of the deposited data

How the results depend on the processing

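Of the member fold changes recomputed under the alternatives, 834 kept their direction and their side of the threshold, 34 kept their direction but no longer passed, and 17 passed in addition. The other 5 changed sign, and passed the test neither as reported nor under the alternative. They were Egr1 in doubly-activated (-0.36) and in Notch-labelled minus control (-0.01) without control library 2, Nr4a3 in doubly-activated minus control without control library 2 (0.29) or doubly-activated library 1 (0.17), and Egr2 in Notch-labelled minus control without Notch-labelled library 1 (0.09). With 1 library left out these ranged from -0.01 to 1.85 for Egr1 in Notch-labelled, -0.36 to 1.46 for Egr1 in doubly-activated, -0.26 to 0.29 for Nr4a3 and -0.47 to 0.09 for Egr2. The numbers of genes called that moved by over 1.5 times were the following. For NF-kB-activated minus control, 2388 genes and 4 members were called, and 1435 to 2291 genes and 2 to 5 members with 1 library left out (1497 and 1435 genes, and 2 members each, without NF-kB-activated library 1 and 2). For doubly-activated minus control, 3090 genes and 7 members were called, against 1984 genes and 4 members with the compared groups alone and 1624 to 3081 genes and 5 to 9 members with 1 library left out (1624 genes without doubly-activated library 2). For doubly-activated minus NF-kB-activated, 2165 genes and 7 members were called, and 725 to 2800 genes and 5 to 8 members with 1 library left out (1067 and 975 genes without NF-kB-activated library 1 and 2, and 725 without doubly-activated library 2). The cause was not tested; fewer libraries were fitted in each. With 1 library left out, Notch-labelled minus control gave 8353 to 10014 genes and 3 to 6 members, and lymphoma minus doubly-activated 6473 to 8410 genes and 7 to 10 members. Scaling by library size alone gave 1338 rises and 1873 falls in doubly-activated minus control, against 1641 and 1449, and 783 and 1521 in doubly-activated minus NF-kB-activated, against 1031 and 1134; it gave a median log2 fold change of all genes of 0.175 in Notch-labelled minus control, against 0.07. No member call changed under it.

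Replicate numbers did not pair the libraries: the deviations of same-numbered libraries from their group means correlated at r = -0.107 to 0.0863 across genes in 10 pairs of groups over 10376 genes, which are not independent replicates. With the replicate block 2100, 9621, 2794, 1764 and 7634 genes were called in NF-kB-activated, Notch-labelled and doubly-activated minus control, doubly-activated minus NF-kB-activated and lymphoma minus doubly-activated, and 4, 4, 6, 7 and 9 members. Of member calls it ended that of Dusp1 in doubly-activated minus control (adjusted p = 0.0543), and among the other named genes those of Fos (0.0554) and Klf6 (0.0517) in NF-kB-activated minus control and Ier3 (0.0518) in lymphoma minus doubly-activated. With 2 libraries a group, a p that misses the threshold does not show that values did not differ.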
